A study of Mus musculus with 2 samples.

Results

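Matrix metalloproteinases (MMPs), ADAMTS proteases, ADAMTS-like proteins and tissue inhibitors of metalloproteinases (TIMPs) were followed in RNA of the mouse retinal pigment epithelium (RPE)-choroid. Every row of the deposited count table whose name starts with Mmp, Timp, Adamts or Adamtsl and a digit was taken, which gave 51 genes of 23420: 23 Mmp, 19 Adamts, 5 Adamtsl and 4 Timp genes. A member was counted as measured at 10 or more counts in 3 or more libraries. This held for 43 members (16 Mmp, 18 Adamts, 5 Adamtsl and 4 Timp), and the same 43 were tested. Of the other 8, Mmp8 had some counts, and Mmp1a, Mmp1b, Mmp7, Mmp10, Mmp20, Mmp21 and Adamts13 had 0 in all 6 libraries. A count of 0 allows a level of up to 0.104 to 0.165 CPM (the count scaled to library size), depending on the library (3 counts, counting error only).

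The tissue came from untreated mice of 11 to 13 months. The 3 animals of one group are labelled AhR -/-, strain B6.129-AhRtm1Bra/J, a line in which the aryl hydrocarbon receptor (AhR) gene was targeted in the germline. The 3 animals of the other group are labelled AhR +/+, strain C57BL6/J. Anterior segment and retina had been taken off, RNA of 2 eyes was pooled for each library, and polyadenylated RNA was sequenced. The labels name the animals of a group as separate animals. They do not say whether the groups were littermates, so strain background and receptor genotype cannot be told apart.

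MMPs are secreted or membrane-bound zinc proteases that cut collagens, elastin, laminins and cell-surface proteins. They are made as inactive proenzymes. ADAMTS proteases are secreted relatives that process procollagens, cleave proteoglycans or act on microfibrils, and ADAMTS-like proteins share their ancillary domains but have no protease domain. TIMPs block the active site of MMPs. TIMP3 differs from the other TIMPs in that it binds to the matrix. The pigment epithelium secretes it into Bruch's membrane, the sheet between that epithelium and the choroidal vessels, and mutations in the human gene cause Sorsby fundus dystrophy.

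Depth ran from 18058725 to 28692624 gene counts a library. Ahr itself stood at 40.6 to 45.4 CPM in the knockout-labelled libraries and at 19.7 to 26.0 CPM in the wild type. The count over the whole gene does not check the labels, and the direction goes against a loss of transcript, so the first group is called knockout-labelled. None of the members lies on chromosome 12, which carries Ahr (0 of 51). RPE markers (Rpe65, Rlbp1, Best1, Ttr, Lrat and Rgr) were present in every library, with a summed level of 20336 to 35190 CPM in the knockout-labelled and 26711 to 37038 CPM in the wild-type libraries. Photoreceptor markers were also present (6972 to 15138 CPM over all 6 libraries). Markers of corneal and conjunctival epithelium, which lies outside the dissected tissue, summed to 2339 CPM in knockout-labelled animal 1, 12611 in animal 2 and 9653 in animal 3, and to 2006 to 4609 CPM in the wild type. Of these 7 markers, 6 were higher at an unadjusted p under 0.05.

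Below, 3 values joined by "against" to 3 others are knockout-labelled animals 1, 2 and 3 followed by wild-type animals 1, 2 and 3. Whether the proteases and inhibitors differ between the genotypes was asked with edgeR's quasi-likelihood test over 15796 genes. The log2 fold change (knockout-labelled over wild type) lay below 0 for 14 of 18 ADAMTS, 5 of 5 ADAMTS-like and 3 of 4 TIMP genes, with medians of -0.43, -0.36 and -0.39. The MMPs were split, with 8 below and 8 above 0 and a median of -0.05. No single member passed an adjusted p under 0.05 (0 of 43, where 8 genes or 0.0506% of all genes tested did, 0.0253% higher and 0.0253% lower). At an unadjusted p under 0.05, 11 of 43 measured members (25.6%) were lower, against 6.62% of all genes tested. One member, Mmp13, was higher at that p, against 7.55% of all genes. The 3 knockout-labelled libraries all lay below the 3 wild-type libraries for 11 members (25.6%; 9.98% of all genes), and all above them for 0 members (10% of all genes). The log2 fold change was below 0 for 30 of 43 members (69.8%; 48.8% of all genes), with a median of -0.22 against 0.01 over all genes tested. Adamts19 counted as measured only through its wild-type libraries, so its place in both counts of 11 follows in part from that threshold. Without genes that reach 10 counts in 1 group alone, both counts were 10 of 42 (23.8%), against 6.57% of all genes lower at an unadjusted p under 0.05 and 9.86% without overlap. In whole tissue, fewer cells of a type and less RNA per cell cannot be told apart.

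The number of members lower at an unadjusted p under 0.05 ranged from 6 (without wild-type animal 1; 4.79% of all genes) and 7 (without wild-type animal 2; 3.97%) to 12 (without knockout-labelled animal 1; 12% of all genes) when each library was left out. The measured members had a median transcript GC content of 53.4%, against 49.8% over all genes tested. After removal of the trend with GC content, 8 members were lower at that p (4.82% of all genes). DESeq2 called 4 members at an adjusted p under 0.05, all lower (Adamts10, Adamts2, Adamtsl3 and Timp2), where it called 458 genes in all and 1.32% of its genes lower. Without knockout-labelled animal 1, edgeR called Adamts10, Mmp15 and Timp3, also lower, where it called 795 genes in all and 2.4% of its genes lower. Counts of Xist and Y-linked genes mark animal 1 of either group as female and the others as male. This setting therefore left a female in the wild type only. Adamts10, Adamts2, Adamtsl2 and Adamtsl3 were lower at an unadjusted p under 0.05 in each of the 15 alternative settings tried.

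Some markers of other cell types were also lower in the knockout-labelled libraries, while others of the same lists overlapped. Endothelial markers summed to 322 to 467 CPM in the knockout-labelled and 559 to 572 CPM in the wild-type libraries, with 4 of 6 lower at an unadjusted p under 0.05. Pecam1 and Cdh5 overlapped (log2 fold change -0.03 and -0.26). Fibroblast markers summed to 7785 to 8302 CPM and 8970 to 10933 CPM, with 2 of 5 lower at that p (Col1a1 and Col1a2). Dcn, Lum and Pdgfra overlapped (log2 fold change -0.14, 0.33 and -0.11). Sclera and cartilage markers summed to 608 to 974 CPM and 998.9 to 1624 CPM, with 2 of the 5 tested lower at that p (Chad and Fmod). Fmod, Comp, Matn3 and Prg4 overlapped between the groups (log2 fold change -0.74, -0.28, 0.11 and -0.12). In these 3 lists the groups did not overlap in summed level. The fibroblast list holds Col1a1 and Col1a2, and the sclera list Comp and Acan, which are also in the list of substrates further on. Pericyte and smooth muscle markers overlapped (548 to 734 and 688 to 880 CPM), with 2 of 5 lower at that p. The share of reads that aligned more than once also separated the groups, at 22.9% to 25.1% in the knockout-labelled and 18.7% to 19.4% in the wild-type libraries. The part of this share and of these cell types in the lower levels of the members was not tested.

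**Figure D1:**
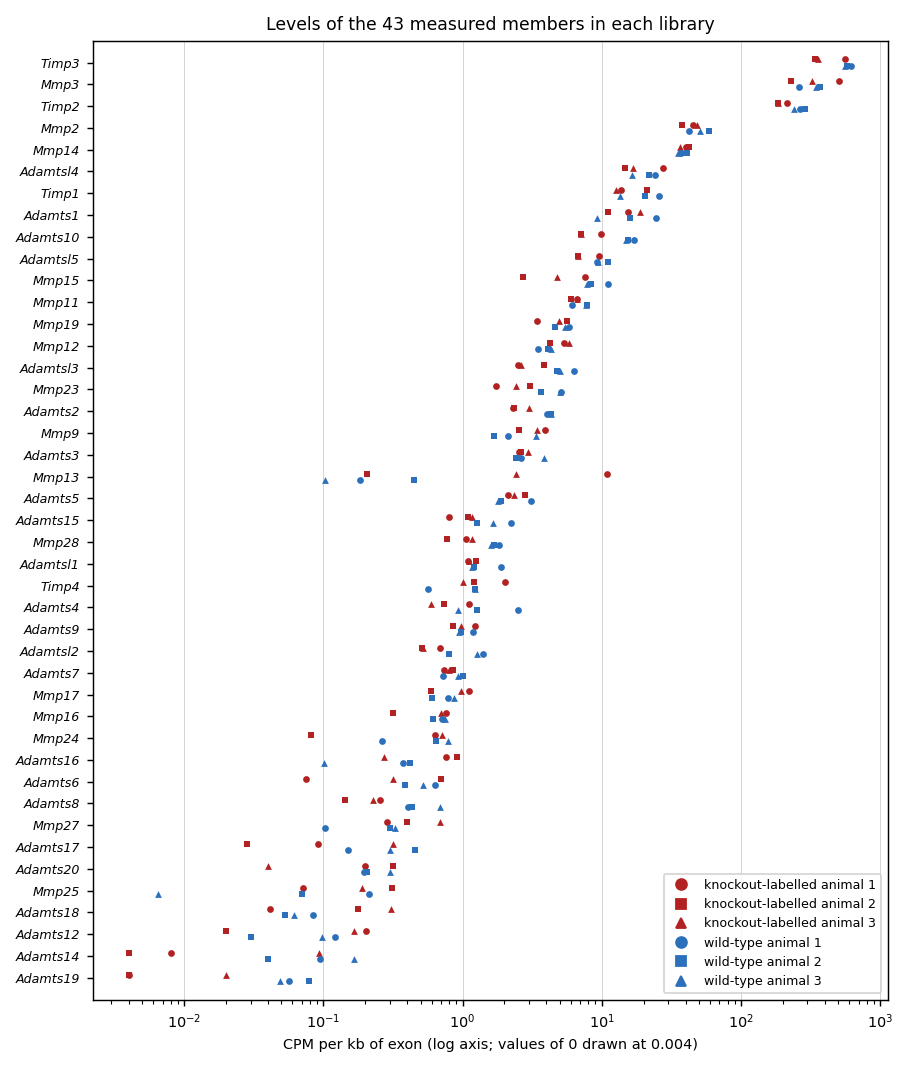
Level of each of the 43 measured members in each library, as CPM per kilobase of exon on a log axis, from the highest member (top) to the lowest. Timp3, Mmp3 and Timp2 stand between 183 and 621 in all 6 libraries, above Mmp2 and Mmp14 (35.2 to 58.9), and the 3 knockout-labelled points of Mmp13 span from 0.21 to 10.9.

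Levels of different genes were compared as CPM per kilobase (kb) of annotated exon. Timp3 had the highest level (mean of the 6 libraries 503 CPM per kb), followed by Mmp3 (339) and Timp2 (229). Timp3 was above Mmp3 in each of the 6 libraries, whereas Mmp3 and Timp2 changed places: wild-type animal 1 held 260 CPM per kb of Mmp3 and 263 of Timp2. Mmp2 (47.2) and Mmp14 (38.7) came next and overlapped in range. The highest ADAMTS-like member was Adamtsl4 (20.3 CPM per kb) and the highest ADAMTS proteases were Adamts1 (15.8) and Adamts10 (11.9). Within the MMPs, Mmp3 made up 68.1% to 79.6% of the summed level per kb in each library. Within the TIMPs, Timp3 made up 62.2% to 71.1% and Timp2 26.9% to 33.8%. These shares depend on the gene models used for length.

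The TIMPs summed to a higher level per kb than the MMPs in each library, and the 2 most abundant TIMPs stood lower in the knockout-labelled libraries. The summed TIMP level was 5429, 3521 and 3615 CPM against 6110, 5868 and 5503 CPM. All 3 wild-type sums were above the 3 knockout-labelled ones. For the MMPs together the sums overlapped, at 1484, 901 and 1115 CPM against 998, 1250 and 1167 CPM.

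Timp2, which encodes the inhibitor that also helps MT1-MMP (the product of Mmp14) to activate proMMP2, lies on the minus strand of chromosome 11 (118301069 to 118355740, GRCm38). It stood at 829, 721 and 713 CPM against 1025, 1125 and 937 CPM. No value overlapped between the groups. Its log2 fold change was -0.45 (SE 0.14; edgeR unadjusted p = 0.0119, adjusted p = 0.235), and DESeq2 gave an adjusted p of 0.0312. Timp3 (chromosome 10, 86300372 to 86349506, plus strand) stood at 4577, 2774 and 2885 CPM against 5058, 4718 and 4547 CPM. Knockout-labelled animal 1 lay inside the wild-type range, and animals 2 and 3 below it. The difference was -0.48 (SE 0.21, edgeR adjusted p = 0.337), and without knockout-labelled animal 1 it was -0.76 (adjusted p = 0.0225, where 2.4% of genes were called lower). The summed RPE markers ran in the same order within the knockout-labelled group (35190, 20336 and 22032 CPM), but not within the wild type (26711, 37038 and 32159 CPM). Their part in the Timp3 values was not tested. Timp3 lies inside Syn3 on the opposite strand, and annotated exons of both genes share bases, so reads there are uncertain without a known strand setting.

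Timp1, the inhibitor induced by injury and cytokines in many tissues, stood at 12.2, 18.7 and 11.3 CPM against 22.9, 18.0 and 12 CPM. Timp4 stood at 11.8, 7.13 and 5.96 CPM against 3.35, 7.23 and 7.29 CPM. For both genes the groups overlapped (log2 fold change -0.33, SE 0.29, and 0.48, SE 0.39).

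The sequences before the starts of Timp3 and Timp2 are shown because these are the most abundant inhibitors and both hold the core letters of the xenobiotic response element, the site that AhR binds with Arnt. The last 120 bases before the RefSeq start (GRCm38.p6) are given 5′ to 3′ on the gene's strand, with GCGTG in capitals where it occurs on that strand.
Timp3, chr10:86300292-86300411, plus strand: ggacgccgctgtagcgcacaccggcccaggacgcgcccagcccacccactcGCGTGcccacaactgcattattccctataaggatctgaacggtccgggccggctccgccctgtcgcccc
Timp2, chr11:118355412-118355531, minus strand: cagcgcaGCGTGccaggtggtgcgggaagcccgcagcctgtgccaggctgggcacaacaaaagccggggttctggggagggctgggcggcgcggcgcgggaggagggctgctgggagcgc
Of the 51 members 36 had a promoter entry, and 13 of these 36 (36.1%) held GCGTG on either strand within 250 bases before the start, against 28.2% of 27025 promoters. Among the 11 lower members, Timp2 and Timp3 held it, while Adamts2, Adamtsl2, Adamtsl3, Mmp15, Mmp23 and Mmp28 had an entry without it. A match of 5 letters is a description and not a binding site.

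Collagenases open fibrillar collagen. Of the 4 listed, Mmp13 alone was measured (chromosome 9, 7272514 to 7283331, plus strand), and it had the largest SD of log2 CPM of the 43 measured members within the knockout-labelled group. Its levels were 29.3, 0.55 and 6.44 CPM (699, 10 and 160 counts) against 0.49, 1.20 and 0.28 CPM (13, 29 and 8 counts). Knockout-labelled animals 1 and 3 were above all wild-type animals, and animal 2 was within their range. The log2 fold change was 4.22 (SE 1.16, edgeR unadjusted p = 0.00519, adjusted p = 0.185). Without knockout-labelled animal 1 it was 2.43 (adjusted p = 0.197), and it was above 0 in each of the 15 alternatives (2.43 to 4.97). The largest adjusted p among these was 0.513, from limma-voom, with a log2 fold change of 3.39. Knockout-labelled animal 1 also held the highest erythroid markers (1073 CPM, against 4.29 to 77.0 CPM in the other libraries) and the highest neutrophil markers (117 CPM, against 56.2 and 77.4 CPM in its group and 6.01 to 11.8 CPM in the wild type). Its corneal markers were the lowest of its group (2339 CPM). The source of these marker counts and its part in the Mmp13 level were not tested. Xist and Y-linked counts mark animal 1 of either group as female, and wild-type animal 1 had 0.49 CPM of Mmp13. With sex as a covariate the log2 fold change was 3.43. Mmp8, the neutrophil collagenase, was not measured: it had 39, 0 and 0 counts in knockout-labelled and 22, 2 and 7 counts in wild-type animals. The neutrophil markers Mpo, Elane and Ngp were at 0 counts in all 6 libraries. Ltf gave most of the summed neutrophil level in the knockout-labelled libraries (87.9, 46.0 and 62.2 CPM). Camp overlapped between the groups (3.43, 0.11 and 1.69 CPM against 2.10, 2.44 and 1.52 CPM), with a log2 fold change of -0.20 (SE 0.89).

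Mmp13 is 1 of 10 members that lie side by side on chromosome 9 (7272514 to 7699585, a span of 427.1 kb): Mmp13, Mmp12, Mmp1b, Mmp3, Mmp1a, Mmp10, Mmp8, Mmp27, Mmp20 and Mmp7. Neighbours in this array differed widely in level. Mmp3 (7445822 to 7455975, plus strand) reached 410 to 912 CPM, while Mmp1a and Mmp1b on either side of it and Mmp10 beyond had 0 counts. Mmp1a and Mmp1b are close copies of each other, and their counts are uncertain, since shared reads may be assigned to neither. Mmp12 and Mmp27 were measured, at 25.0 to 41.8 and 0.23 to 1.53 CPM. The 120 bases before the starts of 4 of these genes are shown to compare a gene whose level varied most, an abundant one, one of middle level and one at 0. Capitals mark the AP-1 motif TGANTCA, the target of Fos and Jun proteins, and sequences run 5′ to 3′ on the plus strand, on which all 4 genes lie.
Mmp13, chr9:7272394-7272513: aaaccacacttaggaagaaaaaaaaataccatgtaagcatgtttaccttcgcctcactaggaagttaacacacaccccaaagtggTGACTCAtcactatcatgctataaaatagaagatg
Mmp3, chr9:7445702-7445821: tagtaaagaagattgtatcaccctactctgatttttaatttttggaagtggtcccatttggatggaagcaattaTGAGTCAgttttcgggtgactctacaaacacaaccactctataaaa
Mmp12, chr9:7344277-7344396: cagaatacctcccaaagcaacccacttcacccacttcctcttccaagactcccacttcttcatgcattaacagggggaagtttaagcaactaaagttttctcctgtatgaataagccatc
Mmp10, chr9:7502222-7502341: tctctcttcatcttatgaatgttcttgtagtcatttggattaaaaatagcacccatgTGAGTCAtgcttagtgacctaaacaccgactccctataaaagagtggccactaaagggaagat
TGANTCA, searched on both strands of the 250 bases before the start, was found in 7 of the 36 member promoters (19.4%) and in 6.9% of all promoters. All 7 belong to the chromosome 9 array (Mmp1a, Mmp1b, Mmp3, Mmp7, Mmp10, Mmp13 and Mmp20), and 5 of them had 0 counts here. The TATA motif TATAAA was found in 10 member promoters (27.8%; 13.0% of all). The abundant Mmp3 and Mmp10, at 0 counts, hold both motifs.

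Gelatinases cut denatured collagen and basement membrane collagen. Mmp2 stood at 152, 127 and 164 CPM against 143, 198 and 171 CPM. Its groups overlapped (log2 fold change -0.21, SE 0.16). Mmp9, which is also stored in neutrophil granules, stood at 13.8, 9.0 and 12.1 CPM against 7.44, 5.95 and 12 CPM. The wild-type animal 3 reached the knockout-labelled range, and the difference of 0.46 (SE 0.31, edgeR adjusted p = 0.538) did not pass. The neutrophil marker sums given above did not overlap, with 3 of the 4 tested markers higher at an unadjusted p under 0.05. The other tested marker, Camp, overlapped, and the part of these markers in Mmp9 was not tested.

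Mmp3, encoding stromelysin 1, which cuts many matrix proteins and activates other proMMPs, stood at 912, 410 and 586 CPM against 469, 660 and 624 CPM. Knockout-labelled animal 1 was above the wild-type range, animal 2 below it and animal 3 inside it. The difference of 0.12 (SE 0.27) turned to -0.23 without knockout-labelled animal 1. Mmp12, the macrophage elastase gene, stood at 38.4, 30.7 and 41.8 CPM against 25.0, 29.7 and 31.4 CPM. Animals 1 and 3 of the knockout-labelled group were above all wild-type animals (log2 fold change 0.37, SE 0.17, edgeR unadjusted p = 0.0550, adjusted p = 0.367). Summed macrophage markers overlapped between the groups (390 to 563 and 417 to 518 CPM). Of these 5 markers, 1 was higher at an unadjusted p under 0.05 in edgeR (Cd68, log2 fold change 0.45, SE 0.19). The others ran from -0.28 (Csf1r) to 0.51 (Aif1). The part of these markers in the Mmp12 level was not tested. Mmp11, encoding stromelysin 3, differed by -0.17 (SE 0.17).

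Membrane-type MMPs act at the cell surface. Mmp14, which encodes MT1-MMP, stood at 239, 253 and 216 CPM against 222, 243 and 210 CPM. Its groups overlapped, with a log2 fold change of 0.07 and a 95% confidence interval from -0.22 to 0.37. Mmp15, which encodes MT2-MMP, stood at 41.2, 14.6 and 25.5 CPM against 59.7, 45.5 and 42.2 CPM. All knockout-labelled values were below the wild type, animal 1 by a small margin. The difference was -0.85 (SE 0.32, edgeR adjusted p = 0.291), and without knockout-labelled animal 1 it was -1.29 (adjusted p = 0.0318, where 2.4% of genes were called lower). Without animal 2 of that group it was -0.56 (edgeR adjusted p = 0.525), and without animal 3 it was -0.81 (adjusted p = 0.497). Mmp15 was called in 1 of the 15 alternatives. With all libraries kept, the difference was -0.63 after removal of the trend with transcript GC content. Mmp16, Mmp17, Mmp24 and Mmp25 overlapped between the groups.

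Among the remaining MMPs, 2 stood lower. Mmp23, which encodes a protease held in the membrane by its amino-terminal end, was at 4.06, 7.13 and 5.68 CPM against 11.9, 8.59 and 11.8 CPM. Mmp28, encoding epilysin, an enzyme of keratinocytes and other epithelia, was at 4.10, 3.02 and 4.55 CPM against 7.03, 6.48 and 6.18 CPM. Neither gene overlapped between the groups. The log2 fold changes were -0.94 (SE 0.29) for Mmp23 and -0.75 (SE 0.31) for Mmp28, and edgeR's adjusted p-values were 0.224 and 0.319. With the GC correction they were -0.67 and -0.54, with unadjusted p of 0.0692 and 0.0972. Mmp28 shares exon bases with a gene on the other strand. Mmp19 stood at 12.1, 19.8 and 17.3 CPM against 20.4, 16.3 and 19.1 CPM and overlapped.

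**Figure D2:**
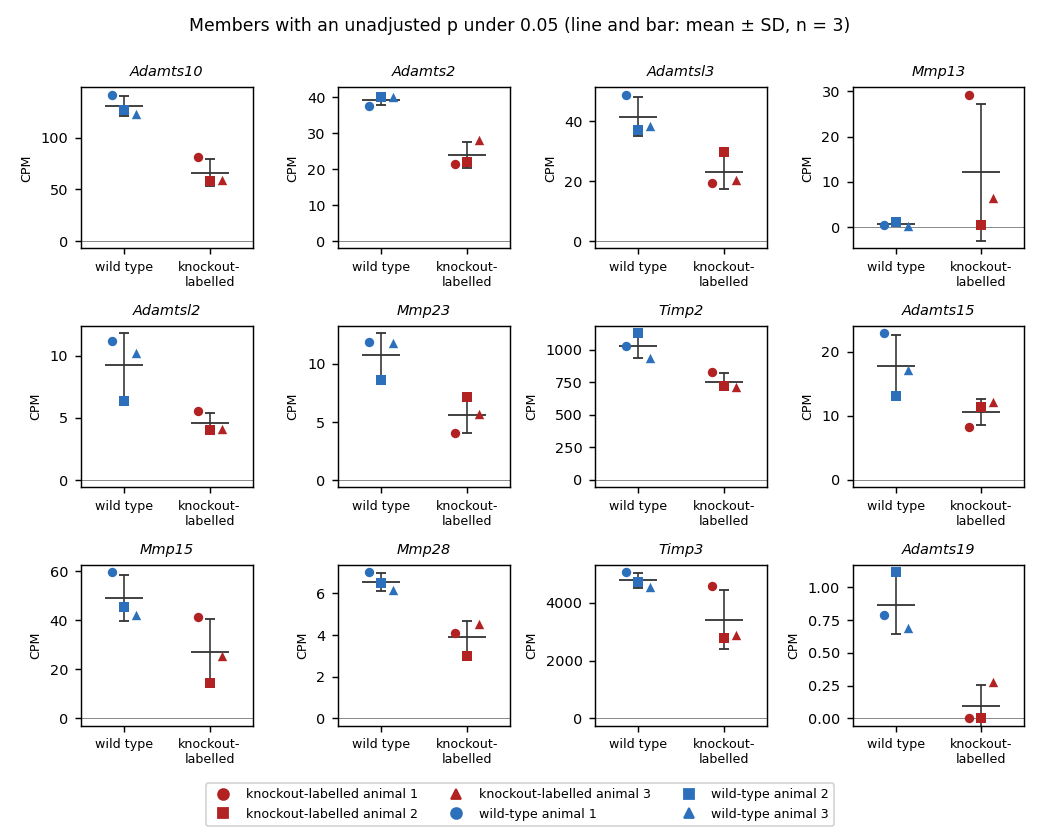
CPM in each animal for the 12 members with an unadjusted p under 0.05 in edgeR's quasi-likelihood test; horizontal lines and bars are group means and SD (n = 3 each). In 10 of the 12 panels all knockout-labelled points lie below all wild-type points. Timp3 overlaps through knockout-labelled animal 1, and in Mmp13 animal 1 stands alone at 29.3.

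Of the 18 measured ADAMTS proteases, 14 lay below 0 (77.8%, against 48.8% of all genes tested). At an unadjusted p under 0.05, 4 were lower (22.2%, against 6.62% of all genes) and 0 were higher (7.55% of all genes). Procollagen N-proteinases remove the amino-terminal propeptide from fibrillar procollagens before fibrils form. Adamts2, the main enzyme of this kind in skin and bone (chromosome 11, 50602084 to 50807573, plus strand), stood at 21.5, 22.0 and 28.0 CPM against 37.6, 40.2 and 40.1 CPM. The wild-type animals lay close together and well above the other group. The log2 fold change was -0.72 (SE 0.15, edgeR adjusted p = 0.14), and DESeq2 gave an adjusted p of 0.0112. Its relative Adamts3, which acts on procollagen II and on proVEGF-C, stood at 13.7, 14.2 and 16.1 CPM against 14.2, 13.1 and 20.8 CPM, with a difference of -0.13 (SE 0.22) and overlapping groups. Adamts14, the third enzyme of this kind, was near the limit of counting (0 to 12 counts in knockout-labelled and 5 to 25 in wild-type libraries).

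Proteoglycan-cleaving ADAMTS enzymes act on aggrecan and versican. Adamts1 stood at 81.5, 59.2 and 98.9 CPM against 130, 84.6 and 48.7 CPM. Adamts5 stood at 22.7, 30.4 and 25.5 CPM against 33.2, 20.3 and 19.2 CPM. Both were widest within the wild type, where animal 1 was highest, and both turned sign in some settings. Adamts15 stood at 8.29, 11.4 and 12.2 CPM against 22.9, 13.2 and 17.1 CPM, without overlap (log2 fold change -0.74, SE 0.26, edgeR adjusted p = 0.258). Adamts8 also did not overlap (0.66 to 1.17 against 1.88 to 3.18 CPM), but its difference of -1.28 (SE 0.60) missed an unadjusted p under 0.05 in edgeR (adjusted p = 0.377). It shares exon bases with a gene on the other strand, as do Adamts4, Adamts7, Adamts9, Mmp11, Mmp12, Mmp19, Mmp24 and Timp4. Adamts4 and Adamts9 overlapped between the groups.

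Adamts7 and Adamts12 encode proteases that cut cartilage oligomeric matrix protein. Adamts7 stood at 4.61, 5.38 and 5.03 CPM against 4.51, 6.36 and 5.80 CPM. Adamts12 stood at 2.22, 0.22 and 1.81 CPM against 1.32, 0.33 and 1.07 CPM. Animal 2 was lowest in both groups for Adamts12, and the groups of both genes overlapped.

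The member with the smallest p was Adamts10, whose product binds fibrillin-1 and is mutated in Weill-Marchesani syndrome, a disorder with dislocated lenses (chromosome 17, 33524204 to 33553782, plus strand). It stood at 81.3, 58.3 and 58.8 CPM against 142, 126 and 123 CPM. The highest knockout-labelled animal was below the lowest wild-type animal. The group means were 66.1 ± 13.1 and 130 ± 9.84 CPM (SD, n = 3 each), and the log2 fold change was -0.98 (SE 0.15). The adjusted p was 0.0860 in edgeR's quasi-likelihood test and 1.82e-05 in DESeq2. It was 0.0105 in edgeR without knockout-labelled animal 1 and between 0.124 and 0.372 when any other library was left out. The GC content of its longest transcript is 58.5%, against a median of 49.8% over tested genes, and with the GC correction the log2 fold change was -0.75 (adjusted p = 0.141). Adamts6, its closest relative, stood at 0.59, 5.49 and 2.46 CPM against 4.96, 3.02 and 4.04 CPM, with overlap. Adamts19 was near the limit of counting, with 0, 0 and 7 counts in knockout-labelled and 21, 27 and 20 counts in wild-type animals. Adamts16 and Adamts18 lay above 0 (1.12, SE 0.64, and 1.40, SE 0.85) with overlapping groups.

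All 5 ADAMTS-like genes lay below 0, as did 48.8% of all genes tested. At an unadjusted p under 0.05, 2 of these 5 were lower (40%, against 6.62% of all genes). Adamtsl3, encoding punctin-2 (chromosome 7, 82335694 to 82614450, plus strand), stood at 19.5, 29.8 and 20.5 CPM against 49.0, 37.1 and 38.5 CPM. All knockout-labelled values were below the wild type, and animal 2 came nearest to the wild type. The log2 fold change was -0.84 (SE 0.20, edgeR adjusted p = 0.167), with an adjusted p of 0.0181 in DESeq2. Adamtsl2, whose product binds fibrillin and latent TGF-beta binding protein and is mutated in geleophysic dysplasia, stood at 5.53, 4.06 and 4.15 CPM against 11.2, 6.36 and 10.2 CPM. It did not overlap either (-1.01, SE 0.31, edgeR adjusted p = 0.219). With the GC correction these values were -0.86 and -0.94. Adamtsl4, mutated in human isolated lens dislocation, stood at 116, 61.3 and 70.8 CPM against 102, 91.8 and 69.1 CPM, and its difference of -0.08 (SE 0.24) turned sign in some settings. Adamtsl5 stood at 44.7, 32.0 and 32.0 CPM against 43.5, 52.3 and 44.0 CPM. Knockout-labelled animal 1 lay within the wild-type range and the others below it (-0.36, SE 0.17, edgeR adjusted p = 0.380).

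The sequences before Adamts2 and Adamtsl3 are shown as a contrast to the chromosome 9 array: both are lower members with GC-rich promoters that hold none of the 3 motifs searched. The GC content over 250 bases was 78.0% and 80.0%, against 37.6% for Mmp3 and a median of 52.0% over all promoters.
Adamts2, chr11:50601965-50602084, plus strand: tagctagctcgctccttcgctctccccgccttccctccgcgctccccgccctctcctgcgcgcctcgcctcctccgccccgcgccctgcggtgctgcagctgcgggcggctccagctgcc
Adamtsl3, chr7:82335574-82335693, plus strand: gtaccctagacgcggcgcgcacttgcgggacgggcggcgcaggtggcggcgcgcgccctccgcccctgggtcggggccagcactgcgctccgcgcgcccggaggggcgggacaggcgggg

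**Figure D3:**
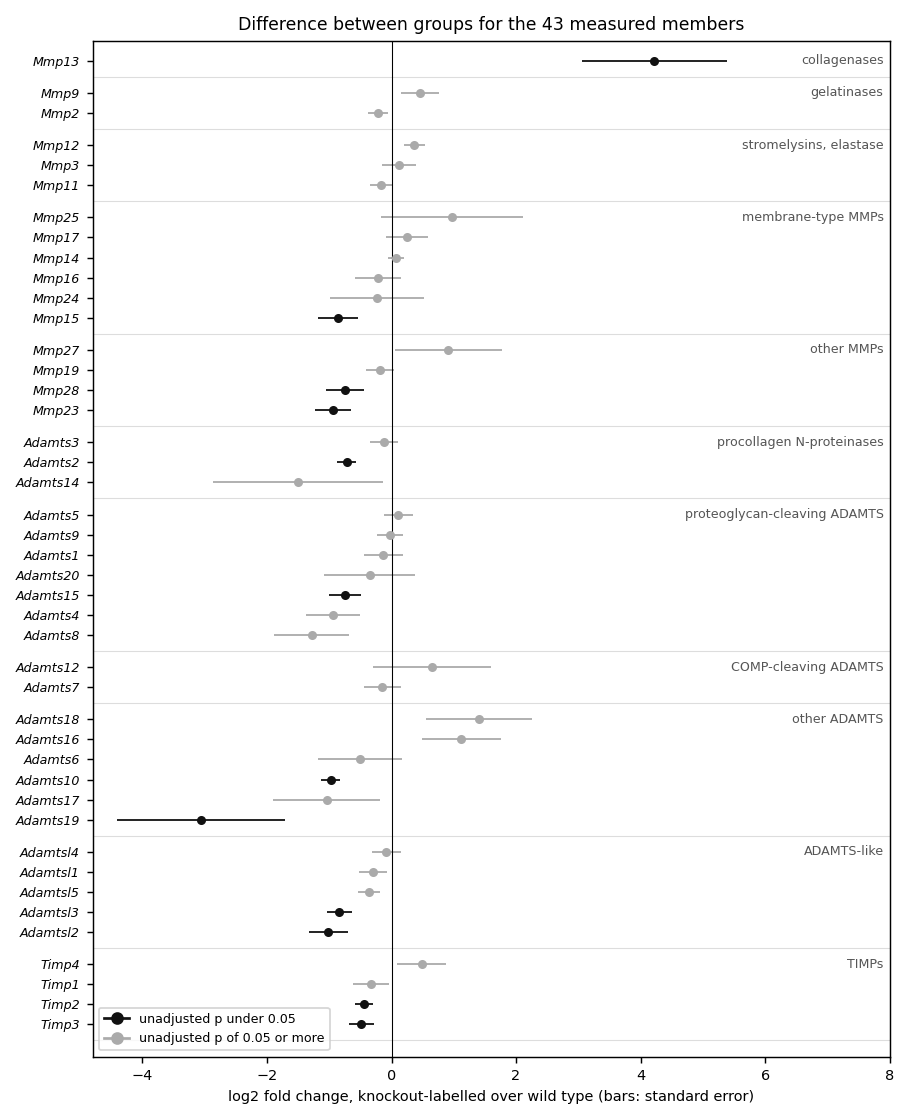
Log2 fold change (knockout-labelled over wild type) with its standard error for the 43 measured members, grouped by role; black marks an unadjusted p under 0.05. The black points lie between -0.45 and -3.06 except Mmp13 at 4.22, and all 5 ADAMTS-like genes lie below 0.

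The other 15 measured members, not given by animal above, had mean levels of 0.35 to 19.0 CPM and log2 fold changes from -1.5 to 1.40, with 10 of 15 below 0. Their smallest unadjusted p in edgeR was 0.0559. Knockout-labelled animal 2 was the lowest library for 17 of 43 members, and for 25.6% of all genes tested. Wild-type animal 1 was the highest for 14 of 43 members and for 13.3% of all genes. Set against its own 6-library mean, the median member stood on the log2 scale at -0.08, -0.285 and -0.06 in knockout-labelled animals 1 to 3 and 0.24, 0.12 and 0.15 in wild-type animals 1 to 3. Over all genes it was between 0.01 and 0.02 in each library.

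**Figure D4:**
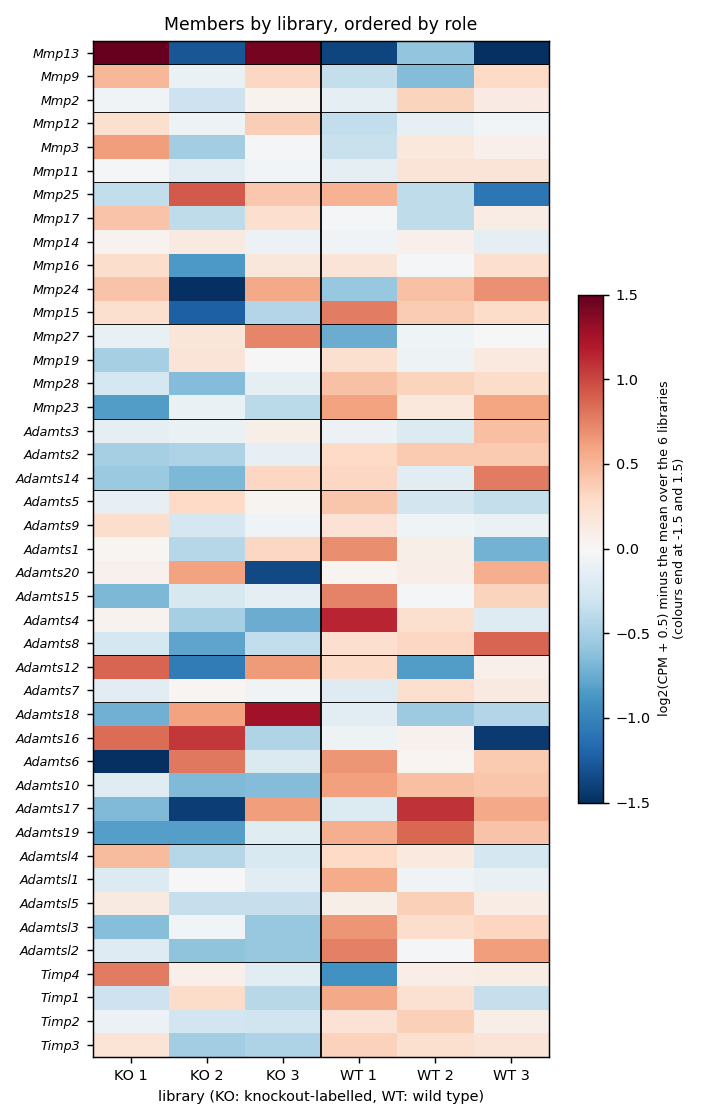
Level of each measured member in each library relative to its own mean over the 6 libraries, as log2(CPM + 0.5), with members ordered by role; red is above and blue below that mean. Blue prevails in knockout-labelled animal 2, the lowest library for 17 of 43 members, and red in wild-type animal 1, the highest for 14.

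In the authors' deposited table, 44 members are listed and 3 have an FDR under 0.05 (2.37% of the 16561 genes listed: 1.62% higher and 0.749% lower in knockout). With the sign turned to knockout over wild type, the authors' deposited table gives Mmp13 a log2 fold change of 4.37 (FDR 0.000205), Adamts10 -0.96 (FDR 0.000508) and Adamtsl3 -0.87 (FDR 0.0233). Mmp13 in the counts rests on knockout-labelled animals 1 and 3, with animal 2 at the wild-type level, whereas Adamts10 and Adamtsl3 were below the wild type in all 3 animals.

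Other genes of the pathway were taken from a list of activators, inhibitors, related proteases and substrates. This list was chosen with earlier results of these data known, so its shares below may follow in part from that choice. Of the 37 tested, 9 were lower at an unadjusted p under 0.05 (24.3%, against 6.62% of all genes). At that p 2 were higher, as were 7.55% of all genes. The median log2 fold change was -0.22, or -0.09 with the GC correction or without wild-type animal 1. One of them, the elastin gene Eln, passed the adjusted test: it fell from 121, 93.9 and 113 CPM in the wild type to 48.4, 42.9 and 33.7 CPM (log2 fold change -1.39, edgeR adjusted p = 0.0389). Eln was called in 7 of 15 alternatives. The call was lost with sex as a covariate, with the GC correction and when any library but knockout-labelled animal 1 was left out (adjusted p 0.0577 to 0.240), while the log2 fold change stayed between -1.15 and -1.52. Among regulators, Reck, a membrane-anchored MMP inhibitor, stood at 126, 116 and 124 CPM against 193, 139 and 141 CPM. Furin, which activates membrane-type MMPs and ADAMTS proteases, stood at 98.5, 78.7 and 91.3 CPM against 115, 123 and 104 CPM. Neither overlapped between the groups (-0.37, SE 0.15, and -0.35, SE 0.13). Lrp1, an endocytic receptor that clears proteases and TIMPs, differed by -0.49 (SE 0.19), with knockout-labelled animal 1 at 1600 CPM just above wild-type animal 3 at 1586 CPM. Bsg encodes basigin, an inducer of MMPs that is abundant in the pigment epithelium. It stood at 2690, 1447 and 1717 CPM against 1924, 2079 and 1846 CPM. The group means were 1951 and 1950 CPM, with knockout-labelled animal 1 above the wild-type range and animals 2 and 3 below it.

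Bmp1, encoding the procollagen C-proteinase, was at 64.8, 55.5 and 55.0 CPM against 80.1, 73.2 and 92.6 CPM, without overlap (-0.49, SE 0.13, edgeR adjusted p = 0.185). Of the procollagen I chains, Col1a1 differed by -1.17 (SE 0.19) and Col1a2 by -0.65 (SE 0.19), and neither overlapped between the groups. The enhancers of the C-proteinase, Pcolce (-0.42, SE 0.19) and Pcolce2 (-0.12, SE 0.19), did not reach an unadjusted p under 0.05 in edgeR. Col4a1, of basement membrane, differed by -0.41 (SE 0.16). Of the ADAM proteases, membrane-bound relatives that shed cell-surface proteins, Adam15 (-0.32, SE 0.12) was lower without overlap at an unadjusted p under 0.05. Adam33 (-0.53, SE 0.26) also did not overlap but missed that p. Adam28 was higher in all 3 knockout-labelled animals (24, 49.2 and 47.7 CPM against 18.3, 5.25 and 7.67 CPM; log2 fold change 1.95, SE 0.45, edgeR adjusted p = 0.147). Knockout-labelled animal 1, the lowest of its group for Adam28, was also the lowest for the corneal markers, and their part was not tested. Adam9, Adam10, Adam17 and Adam19 had log2 fold changes between -0.04 and 0.17. Bcan, encoding brevican, was also higher (144, 33.4 and 49.4 CPM against 6.62, 33.1 and 11.8 CPM), with knockout-labelled animal 2 close to wild-type animal 2.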

How the data were processed

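The authors deposited whole-number gene counts per animal, made with HTSeq after TopHat and Bowtie alignment to mm10, per the submitters' processing notes. Their gene annotation, tool versions and strand setting were not given in the sources used here. The 5 tally rows entered neither library sizes nor tests. Of all reads tallied per library, 14.4% to 16.8% lay in no gene and 18.7% to 25.1% aligned more than once, with the higher shares in the knockout-labelled libraries. The authors' edgeR table, deposited with p-values, FDR, log2 fold changes and mean log2 CPM, codes wild type over knockout. Columns were tied to animals by the labels' descriptions.

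Counts were fitted with edgeR 4.0.16 in R 4.3.3 (filterByExpr, TMM, glmQLFit, glmQLFTest, genotype only), with Benjamini-Hochberg adjustment over 15796 genes and calls at an adjusted p under 0.05. CPM are counts over TMM-scaled library sizes. SE is the log2 fold change over the square root of F, and 95% intervals use the test's degrees of freedom. The fit was tested on simulated data. Exon lengths, GC content and coordinates came from GENCODE M21 (GRCm38), to which all 51 members matched and which may differ from the annotation used for counting, and promoters from RefSeq GRCm38.p6. Alternatives used DESeq2 1.42.0, limma 3.58.1 and other factors, filters, covariates and subsets of libraries. Sex came from counts of Xist and of Y-linked genes.

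Values by animal are given for the measured TIMPs, for members with an unadjusted p under 0.05 and for the 2 most abundant of each role. Members, lists and the naming rule were chosen with earlier results of these data known. A few members named beside them (Adamts14, Adamts8, Mmp11, Mmp27, Mmp8, Adamts16, Adamts18) and Bsg, Pcolce, Pcolce2, Adam33, Adam9, Adam10, Adam17 and Adam19 were picked after their values were seen. The counts without genes that reach 10 counts in 1 group alone were added after seeing the data. One further marker list is not reported here.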

Additional observations from a re-analysis of the deposited data

How the results depend on the processing

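The count of all genes called (8) was 15 with upper-quartile factors, 22 with no filter beyond 1 count, 16 when a CPM of 1 was required in 3 libraries, 458 with DESeq2, 13 with limma-voom, 1 with sex as a covariate and 30 at an adjusted p under 0.1. It ranged from 0 to 795 when 1 library was left out. The count of members called (0) was 1 with no filter (Adamts10), 4 with DESeq2, 1 at an adjusted p under 0.1 and 12 at an unadjusted p under 0.05, and ranged from 0 to 3 when 1 library was left out. The count of members lower at an unadjusted p under 0.05 (11) ranged from 6 to 12 when 1 library was left out and was 8 to 13 in the other alternatives. The cause of these moves was not tested. The animal numbers were not treated as pairs in the main fit. Deviations of same-numbered animals correlated at -0.10, -0.09 and -0.07, which with 3 animals a group cannot settle whether the numbers pair the samples. With the animal number as a replicate block 1 gene and 0 members were called, and the Eln call was lost (adjusted p = 0.207). The median of the members lay between -0.15 and -0.28 in all 15 alternatives, within the spread between replicates of its main value. The sign held for 32 of 43 members and turned for 11. With the GC correction Adamts5 was at -0.0033, Adamts7 at 0.080, Adamtsl4 at 0.17 and Mmp11 at 0.014. With single libraries left out, Mmp3 ranged from -0.23 to 0.36, Adamts1 from -0.45 to 0.26, Adamts3 from -0.26 to 0.086, Adamts5 from -0.054 to 0.40, Adamts9 from -0.18 to 0.094, Adamts20 from -0.97 to 0.13, Adamtsl4 from -0.41 to 0.090, Mmp16 from -0.44 to 0.076 and Mmp24 from -0.64 to 0.26. The cause of these turns was not tested. Depth limits the members near 1 CPM: 1 count was worth 0.0345 to 0.0549 CPM.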
